A study of Mus musculus with 12 samples.

Results

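RNA was compared between spleen samples, labelled as CD4 T cells, of TCF-1 cKO and WT mice that had not been transplanted, with 3 libraries for each genotype out of 12 libraries in the series. The results concern protein-coding genes with a mean of 10 CPM or more in either genotype, CPM being a gene's count scaled to a common library total. Of 21852 protein-coding genes in the files, 9348 met this limit and all 9348 were tested, and the remaining 12504 stood below it. The weight lies on functions other than T cell receptor signaling, cytokines and cell death, which hold 194 of the 9348 genes and leave 9154.

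The labels write TCF-7 cKO, after the gene Tcf7, for the mice called TCF-1 cKO here, which carry Tcf7 flox/flox alleles and CD4cre, whose CD4 promoter drives Cre in T cells from the stage at which thymocytes carry both coreceptors, so mature CD8 T cells lack the allele as well. The WT mice are labelled wild type. Mice were sex-matched young adults, and neither genotype had been treated. The labels call the sorted cells CD4 T cells, whereas the design text of the series speaks of CD8 T cells and of 3 different mice per genotype. Of the named strains for WT mice, the labels do not say which was used.

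TCF-1, the product of Tcf7, is a DNA-binding protein of the TCF/LEF family that is expressed through T cell life and sustains the naive and memory-like states. T cells leaving rest enlarge their ribosome production, protein folding, secretory and mitochondrial machinery, while interferon induces a set of antiviral genes in nearly every cell type of the spleen. RNA of sorted cells can also hold transcripts of other spleen cells, such as B cells, macrophages and red blood cell precursors.

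Total counts were 20183939 to 25756488 in the TCF-1 cKO libraries and 17103415 to 19691807 in the WT libraries. Tcf7, on chromosome 11 of GRCm38 from 52252371 to 52283014, stood at 179, 136 and 163 CPM in the libraries labelled TCF-7 cKO and at 197, 175 and 112 CPM in the libraries labelled WT. The groups overlapped, with a log2 fold change of -0.04 (SE 0.23, edgeR adjusted p = 0.924). Counts over whole transcripts do not resolve exons, so the loss of a floxed part could go unseen here. Why the Tcf7 level was alike was not tested. Tcf7 thus does not check the labels, and every direction below rests on them. The Y-linked genes Ddx3y and Eif2s3y were below 1 CPM in all 6 libraries, whereas Kdm5d, also Y-linked, stood at 9.59, 8.61 and 8.09 CPM in TCF-1 cKO and at 47.2, 19.4 and 35.8 CPM in WT. These 3 genes were chosen after their values were seen.

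Markers of other cell types were abundant in both genotypes. Summed over 21 B cell markers, the level was 46627, 45290 and 49110 CPM in TCF-1 cKO and 42265, 44535 and 43586 CPM in WT, far above the 19 CD4 T cell markers. Those 19 markers summed to 1788, 1615 and 1857 CPM in TCF-1 cKO and to 3163, 3695 and 3103 CPM in WT, a ratio of 0.528. The B cell list was slightly higher, by a ratio of 1.08, and the CD4 T cell list lower in every TCF-1 cKO library than in any WT library. The most abundant B cell markers did not move together. Mean CPM in TCF-1 cKO and WT was 9823 and 7189 for Ighm. It was 23000 and 24950 for Cd74, 2133 and 2495 for Cd79a, and 2355 and 2412 for Cd79b. None of these most abundant markers passed edgeR's test at an adjusted p under 0.05. Of all 21 B cell markers, 9 were higher (42.9%) and 0 lower, or 6 and 3 under the 9348-gene scaling described below. Over all 9348 genes 15.0% were higher. The 17 red pulp macrophage markers summed to 2356, 2632 and 3906 CPM against 2025, 1411 and 2204 CPM, a ratio of 1.58 with no overlap. The 17 natural killer cell markers reached 1758 to 2083 CPM in TCF-1 cKO and 1576 to 1931 CPM in WT, and the 19 monocyte and neutrophil markers 3157 to 4392 CPM and 3079 to 4545 CPM. The 15 erythroid and platelet markers varied within genotypes, from 4641 to 15282 CPM and from 11016 to 26363 CPM. The labelled cell type is thus a minor part of the marker RNA in all 6 libraries, and from which cells the RNA of a gene group came was not tested. None of these lists had a marker at 0 in all 6 libraries. In such bulk samples, fewer cells of a type and less RNA per cell cannot be told apart.

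**Figure D1:**
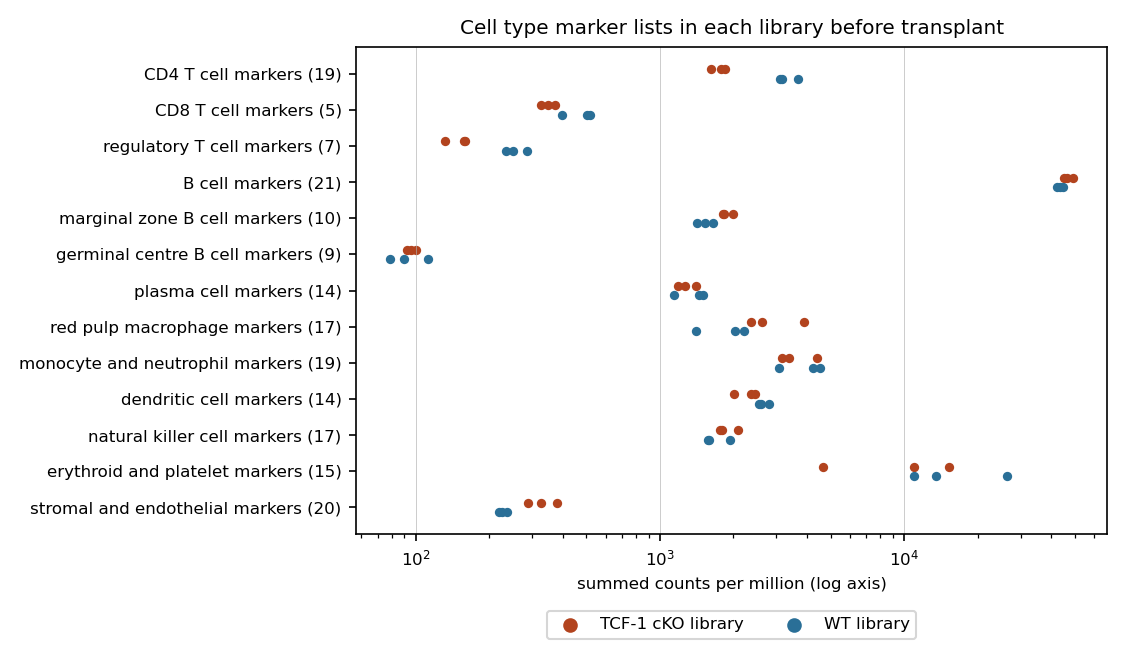
Summed CPM (log axis) of each cell type marker list, with the number of measured markers in brackets, in each TCF-1 cKO library (orange) and each WT library (blue). The 19 CD4 T cell markers reached 1615 to 1857 CPM in TCF-1 cKO and 3103 to 3695 CPM in WT, and 21 B cell markers exceeded them in every library.

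The WT libraries also differed among themselves in RNA that T cells are not known to make. Summed over 1107 olfactory receptor genes, the WT libraries held 6578, 2371 and 4302 CPM and the TCF-1 cKO libraries 1320, 1452 and 821 CPM. Over 9921 processed pseudogenes the sums were 18943, 9362 and 14472 CPM in WT and 6237, 8029 and 6413 CPM in TCF-1 cKO. WT replicate 1 was highest and WT replicate 2 lowest of the WT libraries in both sums. The 50 most abundant genes took 26.0%, 26.4% and 30.1% of the counts in WT and 19.8%, 20.6% and 21.4% in TCF-1 cKO. Lars2, which encodes the mitochondrial leucyl-tRNA synthetase, alone took 42649, 41674 and 49403 CPM in WT and 15206, 18693 and 16063 CPM in TCF-1 cKO. By comparison Actb, chosen after its values were seen, stood at 2994, 3164 and 3080 CPM in WT and 1999, 2145 and 5313 CPM in TCF-1 cKO. Whether all reads counted for Lars2 stem from its messenger RNA was not tested.

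Across all 17021 genes tested, 2127 (12.5%) passed edgeR's quasi-likelihood test with an adjusted p below 0.05 and a change of 1 or more on the log2 scale, 1252 of them higher in TCF-1 cKO (7.36%) and 875 lower (5.14%). Among the 9348 genes, 1405 were higher (15.0%) and 410 lower (4.39%) at an adjusted p under 0.05, a limit that 8.52% and 5.65% of all tested genes passed in these directions, and 1209 (12.9%) and 324 (3.47%) of these also changed by 1 or more on the log2 scale. CPM did not overlap between the groups for 3251 genes that were higher (34.8%) and 1233 that were lower (13.2%). Of 7804 genes over the limit in both genotypes, 1235 were higher and 243 lower. Another 1020 entered through the TCF-1 cKO mean alone and 524 through the WT mean alone, and since a gene that enters through 1 group is high there, they held 170 higher and 167 lower calls, with 0 in the other direction in each. Of genes named below, Trim30d, Srp54b, Slc16a1, Mrc1 and Mcoln3 entered through the TCF-1 cKO mean alone. S1pr2, Slc7a11 and Gpr83 entered through the WT mean alone. The direction of each of these genes is thus in part set by the entry limit. Just inside the limit stood Zmat3 (mean 10.004 CPM for TCF-1 cKO and 7.79 for WT) and just outside it Ampd1 (means 9.9953 and 5.1 CPM).

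The balance between higher and lower genes turned on the scaling of the libraries. TMM factors over all genes, used above, put the median log2 fold change at -0.11 over all tested genes and at 0.30 over the 9348. With TMM factors computed from the 9348 genes alone, their median was 0.02, and 729 were higher (7.8%) and 974 lower (10.4%). All 410 lower genes and 729 of the 1405 higher genes passed under both. Upper-quartile scaling gave 605 higher (6.47%) and 1128 lower (12.1%). Gene groups below are therefore given by their calls under the all-gene scaling followed, in brackets or in words, by those under the 9348-gene scaling. For some groups the median is given too, to be read beside 0.30. Of the 40 function lists, 22 had a share of higher calls above the 15.0% of all 9348 genes. That a list rose in some members only counts its higher calls, whether or not their share exceeds 15.0%. A value by which a gene rose or fell is its log2 fold change under the all-gene scaling.

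Single libraries weighed heavily on the number of calls. Without WT replicate 1, 5 genes were higher and 3 lower at an adjusted p under 0.05, against 2268 and 847 at an unadjusted p under 0.05. Among the higher genes were Cep85, Chd9, Mrc1 and Srp54b, and the lower genes were Igfbp4, Izumo1r and Lars2. Without TCF-1 cKO replicate 1, 2 or 3 the calls were 322 and 86, 586 and 156, and 885 and 127, and without WT replicate 3 they were 572 and 177. Without WT replicate 2 they were 1241 and 370. Of the gene groups described below, none kept a call without WT replicate 1, apart from the red pulp macrophage and regulatory T cell markers with 1 each.

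**Figure D2:**
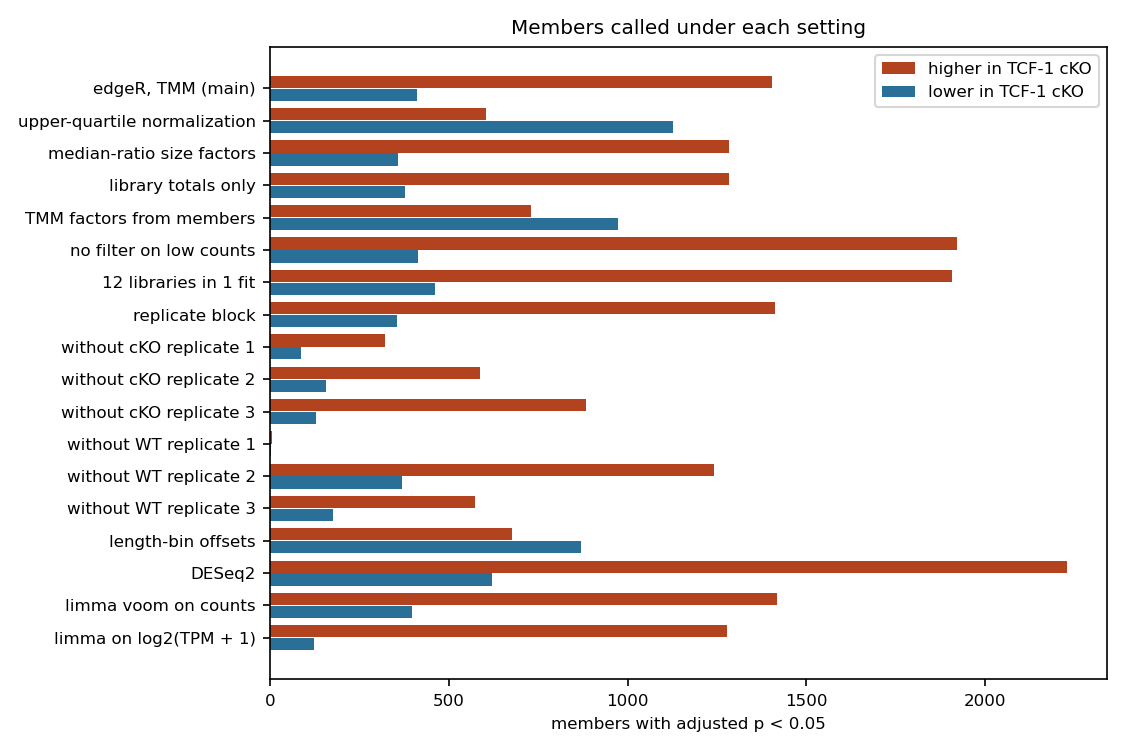
Number of the 9348 genes with adjusted p under 0.05 (bars from 0) that were higher (orange) or lower (blue) in TCF-1 cKO, under each test, scaling, filter and set of libraries. Higher calls exceed lower calls with all-gene TMM (1405 and 410), the order turns with upper-quartile scaling (605 and 1128), and 8 calls are left without WT replicate 1.

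Transcript length moved with the fold change. When the 9348 genes were divided into 5 equal groups by transcript length, the median log2 fold change was -0.11 in the shortest group and 0.22, 0.36, 0.50 and 0.62 in the next 4. The share called higher was 6.52% in the shortest group and 21.7% in the longest, while the share called lower was 7.01% and 7.54% in these and 1.76% in the middle group. Across genes, which are not independent replicates, the Spearman correlation of fold change and length was 0.232 (n = 9348). With scaling set within length bins, 677 genes were higher (7.24%) and 869 lower (9.3%). Under this scaling the median of the 9348 genes was 0.01. The list medians that stood farthest above it were those of the mitochondrially encoded genes (0.90), interferon-stimulated genes (0.69), chaperones (0.59) and DNA replication and mitosis (0.57). Those of ER folding, translation factors and COPII, COPI and Golgi traffic were 0.07, 0.09 and 0.09, near all genes. Glycolysis and the pentose phosphate pathway stood at -0.68, immediate early genes at -0.45 and MHC class I presentation at -0.26.

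**Figure D3:**
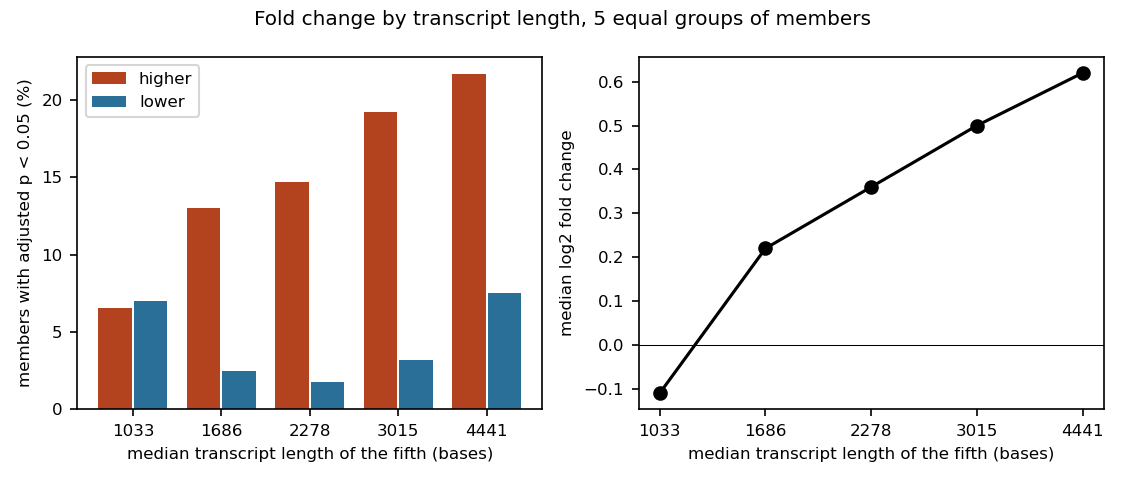
Left, share of genes called higher (orange) and lower (blue) in TCF-1 cKO in 5 equal groups of the 9348 genes by transcript length; right, median log2 fold change of each group, with the group's median length in bases on both horizontal axes. The median rises from -0.11 at 1033 bases to 0.62 at 4441 bases.

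Interferon-stimulated genes had the highest median of the 40 function lists under the all-gene scaling, at a log2 fold change of 1.01 beside 0.30 for all 9348 genes, and stood second to the mitochondrially encoded genes with length-bin scaling. Of 45 measured members, 21 rose and 1 fell, with 18 and 1 under the 9348-gene scaling and 14 and 1 with length-bin scaling. Trim30a, a TRIM-family regulator of innate signaling on chromosome 7 from 104409025 to 104465193, stood at 130, 115 and 107 CPM in TCF-1 cKO and at 31.7, 40.8 and 13.9 CPM in WT. Every TCF-1 cKO library was above every WT library, with a log2 fold change of 2.01 (SE 0.34, edgeR adjusted p = 0.00904). Oasl2, of the oligoadenylate synthetase family, reached 101, 71.5 and 68.1 CPM against 20.4, 20.1 and 24.1 CPM (log2 fold change 1.85, SE 0.29, edgeR adjusted p = 0.00687). Gbp7, a guanylate-binding GTPase that acts against intracellular microbes, reached 68.1, 52.0 and 58.1 CPM against 21.8, 23.1 and 14.6 CPM. Both genes were separated between the genotypes. Trim30d rose by a log2 fold change of 2.23, and Samd9l, Gbp3 and Ifit3, chosen after their values were seen, by 2.07, 1.94 and 1.41.

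The rise did not reach all well-known members of the interferon list. Gbp5, another guanylate-binding protein, fell, from 50.3, 25.4 and 47.4 CPM in WT to 10.5, 17.6 and 17.3 CPM in TCF-1 cKO (log2 fold change -1.48, SE 0.38, edgeR adjusted p = 0.0289). Isg15, the ubiquitin-like modifier, stood at 18.1, 15.3 and 21.7 CPM in TCF-1 cKO and 22.2, 18.5 and 26.8 CPM in WT, and Irf7, the transcription factor that amplifies interferon production, at 218, 152 and 297 CPM and 178, 230 and 206 CPM. Both overlapped between the genotypes and did not pass the test. These 3 were also chosen after their values were seen.

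Promoter sequence was read for the list because the interferon response element is known to mark such genes. A pair of GAAA separated by 2 bases of any kind, sought on both strands from 250 bases before to 50 bases after the start in RefSeq promoters of GRCm38.p6, was found in 21 of 36 list members with an entry (58.3%) and in 10 of the 16 that rose (62.5%). It was found in 3.99% of 27018 genes and in 4.28% of the 7485 described genes with an entry. Stretches of 60 bases around the matches before the RefSeq start are given for 6 genes that rose, and then for Isg15 and Gbp5, so that the elements can be compared between genes that did and did not rise. Capitals mark the element or its reverse complement, and overlapping matches run together.
Gbp3, chr3:142559980-142560039, plus strand: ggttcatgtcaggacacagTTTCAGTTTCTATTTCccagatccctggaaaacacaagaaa
Gbp7, chr3:142530258-142530317, plus strand: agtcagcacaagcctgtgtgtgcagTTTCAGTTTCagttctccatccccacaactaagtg
Ifit3, chr19:34583382-34583441, plus strand: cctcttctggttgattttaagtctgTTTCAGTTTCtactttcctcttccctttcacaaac
Irgm1, chr11:48871421-48871480, minus strand: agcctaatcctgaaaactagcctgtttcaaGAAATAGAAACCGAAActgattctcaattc
Phf11b, chr14:59341346-59341405, minus strand: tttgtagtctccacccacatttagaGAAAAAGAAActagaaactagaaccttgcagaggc
Trim30a, chr7:104465195-104465254, minus strand: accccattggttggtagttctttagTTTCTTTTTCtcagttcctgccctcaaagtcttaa
Isg15, chr4:156200850-156200909, minus strand: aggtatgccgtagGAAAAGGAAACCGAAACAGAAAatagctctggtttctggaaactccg
Gbp5, chr3:142496744-142496803, plus strand: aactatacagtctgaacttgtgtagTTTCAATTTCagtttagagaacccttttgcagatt
Isg15 held 3 overlapping matches without passing the test, Irgm1 held 2 and rose by a log2 fold change of 1.01, and Gbp5 held 1 and fell. A match describes letters in this window and does not show binding. The sums of red pulp macrophage and B cell markers moved in the same direction as the list, the B cell sum by a ratio of only 1.08. The part of these cells in the list was not tested.

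Chaperones, which fold newly made proteins, rose in 14 of 30 measured members and fell in 0, with 9 and 0 under the 9348-gene scaling, 10 and 0 with length-bin scaling and a median of 0.81. Hsp90aa1, the inducible cytosolic HSP90 on chromosome 12 from 110690605 to 110702728, stood at 210, 234 and 193 CPM in TCF-1 cKO and at 69.1, 73.1 and 50.5 CPM in WT. The groups were far apart, with a log2 fold change of 1.70 (SE 0.22, edgeR adjusted p = 0.00549). Cct8, a subunit of the ring chaperonin that folds actin and tubulin, reached 364, 344 and 336 CPM against 113, 150 and 65.3 CPM (log2 fold change 1.65). Hspa9, the mitochondrial HSP70, and Ptges3, the HSP90 co-chaperone p23, rose by 1.52 and 1.42. Of members chosen after their values were seen, Hsph1, a nucleotide exchange factor of HSP70, rose by 1.98, and Hspa8, the abundant constitutive HSP70, stood at 1631, 1826 and 2302 CPM against 1461, 1517 and 1203 CPM without passing the test. The heat shock element, sought as GAA, TTC and GAA with 2 bases between each, or TTC, GAA and TTC likewise, in the same windows and on both strands, stood in 4 of 29 chaperone genes with an entry (13.8%), in 1 of the 10 that rose and in 0.663% of all genes.

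In the endoplasmic reticulum, 9 of 31 genes for folding and the unfolded protein response were higher and 0 lower, with 6 and 1 under the 9348-gene scaling and 5 and 0 with length-bin scaling. Hspa5, the HSP70 of this compartment (BiP), stood at 747, 726 and 861 CPM in TCF-1 cKO and at 339, 380 and 243 CPM in WT (log2 fold change 1.25, SE 0.20, edgeR adjusted p = 0.00792). Hsp90b1, its HSP90, and Pdia3, a disulfide isomerase that acts on glycoproteins, rose by 1.5 and 1.61. The 3 genes did not overlap between genotypes. Among 31 genes of the translocon and of N-glycosylation, 11 rose and 0 fell (8 and 3), with Stt3a, a catalytic subunit of oligosaccharyltransferase, at 249, 241 and 234 CPM against 114, 119 and 71.6 CPM. COPII, COPI and Golgi traffic had 3 of 32 members higher (9.38%, below the 15.0% of all 9348 genes) and 0 lower (2 and 1), of which Copb1, a coatomer subunit, rose by 1.67. Srp54a and Srp54b, adjacent near-identical genes for the signal recognition particle on chromosome 12, rose by 1.99 and 3.37, and how kallisto divided shared reads between them is uncertain. The median of these lists was 0.50, 0.41 and 0.49, close to that of genes of middle length.

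Protein synthesis split by component. Ribosome biogenesis factors rose in 17 of 47 members and fell in 0 (9 and 2 under the 9348-gene scaling), with a median of 0.73. Ncl, the nucleolar protein nucleolin, stood at 378, 380 and 323 CPM in TCF-1 cKO and at 137, 133 and 80.4 CPM in WT (log2 fold change 1.61, SE 0.23, edgeR adjusted p = 0.00575). Npm1, the ribosome assembly chaperone nucleophosmin, reached 449, 489 and 418 CPM against 156, 177 and 98.3 CPM (log2 fold change 1.63). Both were clearly separated, and Dkc1, the pseudouridine synthase dyskerin, and Bms1, a GTPase of small subunit assembly, rose by 1.37 and 2.06.

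Translation factors rose in 15 of 58 members and fell in 2 (11 and 8, and 9 and 5 with length-bin scaling), with a median of 0.49 that became 0.09 with length-bin scaling. Eif5, which triggers GTP hydrolysis on the scanning ribosome, stood at 325, 237 and 218 CPM against 82.9, 93.7 and 52.8 CPM (log2 fold change 1.74, SE 0.26, edgeR adjusted p = 0.00589). Eif4g2, Eif3a and Eif2s1, all of initiation, rose by 1.46, 1.62 and 1.52. The pair that fell, named after their values were seen, was Eef2, the translocation factor, and Eif3k, an initiation factor subunit (log2 fold changes -0.72 and -0.77). Cytosolic aminoacyl-tRNA synthetases rose in 6 of 19 members and fell in 0 (3 and 1), among them Lars by 1.49 and Eprs by 1.11.

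Cytosolic ribosomal proteins themselves had a median of -0.42, the lowest of the function lists with at least 12 members under the all-gene scaling but not with length-bin scaling, where it was -0.13. Of 83, 4 were higher and 23 lower, with 0 and 39 under the 9348-gene scaling and 9 and 19 with length-bin scaling. Rps14, a small subunit protein, stood at 925, 1308 and 1153 CPM in TCF-1 cKO and at 2467, 2382 and 3159 CPM in WT (log2 fold change -1.29, SE 0.22, edgeR adjusted p = 0.00904). Rps27 reached 708, 980 and 887 CPM against 1829, 1615 and 2786 CPM, and Rplp1, of the acidic stalk, 471, 644 and 579 CPM against 1155, 1035 and 1774 CPM. All 3 were lower in each TCF-1 cKO library than in any WT library. Rpsa fell by 1.05. The 4 that rose under the all-gene scaling were Rpl4, Rpl21, Rpl7 and Rpl7l1, by 0.72, 0.67, 0.77 and 0.82, and these were named after their values were seen. Transcripts of the list are short, with a median of 650.9 bases, and many have processed pseudogenes with which reads may be shared; the pseudogene sum was also lower in TCF-1 cKO. Mitochondrial ribosomal proteins had a median of 0.01, with 2 of 77 higher and 1 lower (0 and 10).

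**Figure D4:**
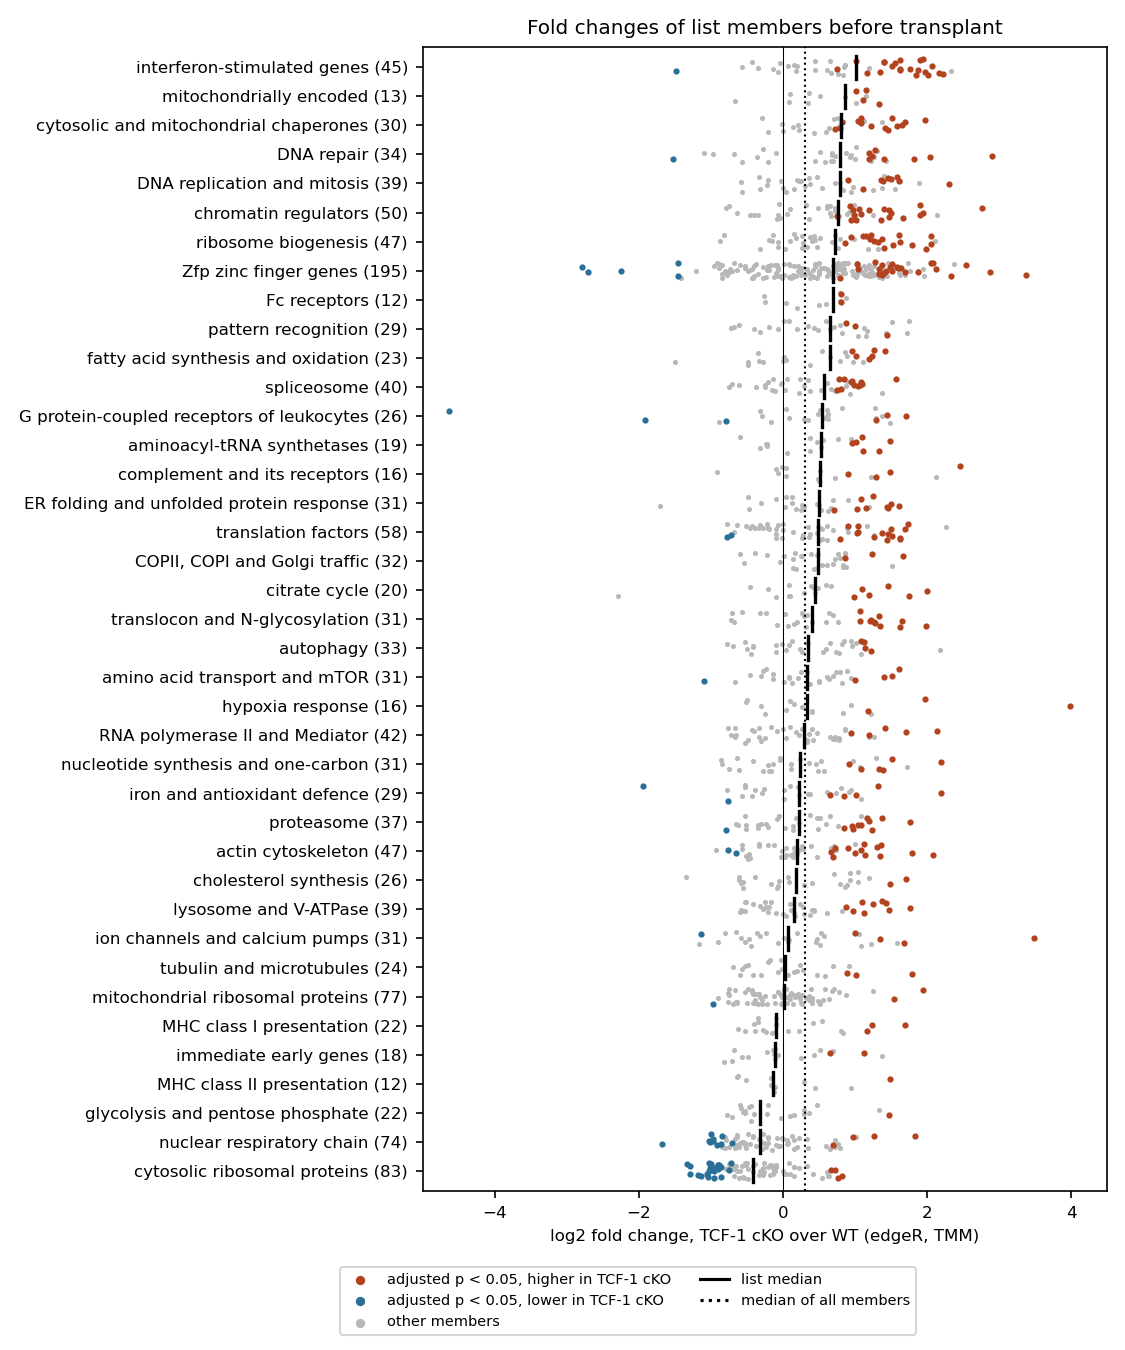
Log2 fold change (TCF-1 cKO over WT, all-gene TMM) of each measured member of the function lists with at least 12 members, ordered by list median (black bar), with members called higher in orange and lower in blue. Interferon-stimulated genes (median 1.01) stand at the top and cytosolic ribosomal proteins (median -0.42) at the bottom, and the dotted line marks the median of all 9348 genes, 0.30.

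Nuclear genes of the respiratory chain had a median of -0.31 under the all-gene scaling, with 4 of 74 higher and 10 lower, and 0 and 27 under the 9348-gene scaling. With length-bin scaling the median was -0.05, near the 0.01 of all 9348 genes, with 5 higher and 8 lower. Uqcrc1, a core subunit of complex III, stood at 374, 462 and 486 CPM in TCF-1 cKO and at 693, 928 and 941 CPM in WT (log2 fold change -1.01, SE 0.22, edgeR adjusted p = 0.0179). Cox4i1, of cytochrome c oxidase, fell by 0.99 and Ndufb2, of complex I, by 1.67. The 13 mitochondrially encoded genes had a median of 0.87, and 0.90 with length-bin scaling, with 4 higher and 0 lower (1 and 1, and 2 and 0 with length-bin scaling). Among them mt-Cytb reached 2502, 2027 and 1439 CPM against 901, 998 and 438 CPM (log2 fold change 1.34, SE 0.29, edgeR adjusted p = 0.0163). The sum of the 13 was 27952, 25898 and 19330 CPM in TCF-1 cKO and 17907, 22991 and 7619 CPM in WT, so that the genotypes overlapped and WT replicate 3 was lowest. The nuclear list, too, consists of short transcripts, with a median of 685.1 bases.

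The citrate cycle list, whose mitochondrial enzymes feed that chain, rose in 6 of 20 members and fell in 0 (4 and 1). Sucla2, of succinyl-CoA synthetase, stood at 72.9, 65.9 and 55.0 CPM against 9.62, 21.0 and 15.8 CPM (log2 fold change 2.0, SE 0.36, edgeR adjusted p = 0.0105). Dld and Idh3a rose by 1.75 and 1.20, and Idh1, a cytosolic enzyme on the list, by 1.46. Fatty acid synthesis and oxidation rose in 6 of 23 and fell in 0 (3 and 1), with the desaturase genes Scd1 and Scd2 up by 1.26 and 1.42. Glycolysis and the pentose phosphate pathway had a median of -0.31, where 1 of 22 rose, the lactate carrier Slc16a1 (by 1.48), and 0 fell, and where 0 rose and 7 fell under the 9348-gene scaling and 0 and 10 with length-bin scaling. Gapdh, named after its values were seen, stood at 759, 845 and 926 CPM against 1046, 1247 and 1290 CPM and did not pass under the all-gene scaling. Cholesterol synthesis rose in 2 of 26 (7.69%, below the 15.0% of all 9348 genes) and fell in 0 (1 and 3), at a median of 0.19. Cyp51, a sterol demethylase, rose by 1.71. Nucleotide synthesis rose in 6 of 31 and fell in 0 (2 and 1), at a median of 0.24. Prps2, which makes the ribose donor, rose by 2.19 and Gmps by 1.34.

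Among lists for protein breakdown and nutrient sensing, the proteasome had a median of 0.22, with 10 of 37 higher and 1 lower (5 and 6). Psma6, of the core ring, stood at 150, 214 and 189 CPM against 85.4, 86.3 and 57.7 CPM (log2 fold change 1.24), and Psmb6, a catalytic subunit named after its values were seen, fell by 0.79. Lysosomal genes rose in 9 of 39 and fell in 0 (6 and 2), at a median of 0.15. Ctsc, which activates granule proteases, stood at 486, 489 and 430 CPM against 172, 208 and 118 CPM (log2 fold change 1.47, SE 0.23, edgeR adjusted p = 0.00674). Autophagy rose in 4 of 33 (12.1%) and fell in 0 (2 and 4). Amino acid transport with mTOR signaling rose in 4 of 31 (12.9%) with 1 lower (2 and 1). Both shares were below the 15.0% of all 9348 genes. Rictor of mTORC2 rose by 1.61, and Lamtor4, of a lysosomal anchor in mTOR signaling, was lower (log2 fold change -1.09). The hypoxia list rose in 3 of 16 (18.8%, beside 15.0% of all 9348 genes) and fell in 0 (2 and 1). In it Hif1a, the oxygen-sensing factor, stood at 73.8, 53.0 and 57.3 CPM against 15.0, 25.4 and 6.13 CPM.

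Iron and antioxidant genes rose in 5 of 29 (17.2%, beside 15.0% of all 9348 genes) and fell in 2 (2 and 4), at a median of 0.23. Slc40a1, the iron exporter ferroportin, on chromosome 1 from 45908068 to 45926523, stood at 306, 315 and 515 CPM in TCF-1 cKO and at 68.3, 88.6 and 81.6 CPM in WT (log2 fold change 2.20, SE 0.27, edgeR adjusted p = 0.00418). Cat, catalase, rose by 1.32. The pair that fell was Slc7a11, the cystine importer, and Gpx4, a lipid peroxidase chosen after its values were seen (log2 fold changes -1.94 and -0.76). Slc40a1 is also a marker of red pulp macrophages, a list with 4 of 17 higher and 0 lower (3 and 0), in which Mrc1, the mannose receptor, reached 61.0, 42.5 and 53.1 CPM against 9.03, 6.42 and 4.96 CPM (log2 fold change 2.93, SE 0.35, edgeR adjusted p = 0.00418). Mrc1 entered through the TCF-1 cKO mean alone, so its direction is in part set by the entry limit. C1qb, a complement component made by macrophages and a marker of red pulp macrophages, overlapped between genotypes, at 216, 272 and 541 CPM against 351, 220 and 428 CPM.

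In the nucleus, chromatin regulators rose in 19 of 50 members and fell in 0 (8 and 0, and 7 and 1 with length-bin scaling). Their median was 0.77 beside 0.50 for genes of their length. Kdm6a, an X-linked demethylase of H3K27, stood at 53.5, 38.2 and 48.2 CPM in TCF-1 cKO and at 13.5, 11.6 and 11.3 CPM in WT (log2 fold change 1.91, SE 0.32, edgeR adjusted p = 0.00847). Ep300, a histone acetyltransferase, Pbrm1, of the PBAF remodeler, and Setd2, the H3K36 methyltransferase, rose by 1.48, 1.67 and 1.48, and the values of all 4 were separate between genotypes. Chd9, a remodeler outside the list, reached 359, 385 and 295 CPM against 108, 76.6 and 56.3 CPM and had one of the 10 smallest p-values (log2 fold change 2.10, SE 0.24, edgeR adjusted p = 0.00418).

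In RNA processing and genome upkeep, shares depended on the list. The spliceosome rose in 12 of 40 members and fell in 0 (3 and 2), where Sf3b1, of the U2 particle, stood at 607, 401 and 411 CPM against 168, 197 and 105 CPM (log2 fold change 1.57, SE 0.26, edgeR adjusted p = 0.00831). DNA replication and mitosis rose in 9 of 39 and fell in 0 (2 and 1), with Cdc45, of the replicative helicase, at 94.7, 37.2 and 31.7 CPM against 11.5, 15.7 and 5.57 CPM and the helicase subunit Mcm6 up by 0.91. DNA repair rose in 8 of 34 and fell in 1 (4 and 1), with Msh6, of mismatch repair, at 103, 78.2 and 47.1 CPM against 25.3, 23.3 and 15.5 CPM. Brca2, named after its values were seen, fell (log2 fold change -1.52) although its values overlapped between genotypes, at 25.8, 22.9 and 10.4 CPM in TCF-1 cKO and 81.6, 23.4 and 62.9 CPM in WT. The 9 replication-dependent histones measured had a median of -0.76 with 0 called in either direction (0 and 2). RNA polymerase II and Mediator rose in 5 of 42 (11.9%) and fell in 0 (1 and 3), and 195 Zfp zinc finger genes had 26 higher (13.3%) and 5 lower (15 and 9) at a median of 0.69, both shares being below the 15.0% of all 9348 genes.

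The actin cytoskeleton rose in 13 of 47 members and fell in 2 (8 and 8), at a median of 0.20. Capza1, which caps actin filaments, stood at 515, 434 and 383 CPM against 132, 172 and 73.4 CPM (log2 fold change 1.80, SE 0.28, edgeR adjusted p = 0.00687). Lcp1, the leukocyte actin bundler, reached 2052, 2095 and 2114 CPM against 958, 1114 and 726 CPM, and Dock2, which activates RAC in migrating lymphocytes, rose by 1.31. By contrast Pfn1 and Coro1a, actin regulators chosen after their values were seen, fell (log2 fold changes -0.65 and -0.76), Coro1a from 5305, 7082 and 6042 CPM in WT to 3383, 3699 and 4193 CPM. Tubulin and microtubule genes rose in 3 of 24 (12.5%, below the 15.0% of all 9348 genes) and fell in 0 (1 and 3), at a median of 0.03. Kif5b, a kinesin motor, rose by 1.80. Ion channels and calcium pumps rose in 4 of 31 (12.9%, also below 15.0%) and fell in 1 (3 and 5), at a median of 0.07. Kcnn4, the calcium-gated potassium channel of lymphocytes, fell from 251, 309 and 280 CPM in WT to 77.5, 161 and 159 CPM (log2 fold change -1.13, SE 0.29, edgeR adjusted p = 0.0272), while Mcoln3, a lysosomal channel, stood at 13.1, 11.3 and 28.1 CPM against 0.176, 3.97 and 0.334 CPM.

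G protein-coupled receptors of leukocytes rose in 3 of 26 members and fell in 3 (0 and 3). Each share was 11.5%, beside 15.0% higher and 4.39% lower over all 9348 genes. Gpr83, a receptor known from regulatory T cells, stood at 0.696, 0.0389 and 0.754 CPM in TCF-1 cKO and at 18.2, 7.03 and 11.4 CPM in WT, with a log2 fold change of -4.63 (SE 0.91, edgeR adjusted p = 0.0132). It entered through the WT mean alone, so its direction is in part set by the entry limit. S1pr4, a sphingosine phosphate receptor, stood at 187, 203 and 203 CPM against 324, 363 and 313 CPM, and S1pr2, its relative, fell by 1.91. The S1pr4 values were tight within both genotypes.

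Of the other innate groups, complement and its receptors rose in 4 of 16 members and fell in 0 (3 and 0). Cd55, which protects cells from complement, on chromosome 1 from 130439027 to 130462744, stood at 348, 319 and 246 CPM in TCF-1 cKO and at 57.2, 73.1 and 33.4 CPM in WT (log2 fold change 2.46, SE 0.29, edgeR adjusted p = 0.00418). Cr2, the complement receptor of B cells, and Itgam, a chain of the receptor CR3 on myeloid cells, rose by 1.29 and 1.49. B cell markers rose in 9 of 21 and fell in 0 under the all-gene scaling and in 6 with 3 lower under the 9348-gene scaling, and their part in the Cr2 value was not tested. Fc receptors rose in 2 of 12 (16.7%, beside 15.0% of all 9348 genes) and fell in 0 (0 and 0). Pattern recognition genes rose in 3 of 29 (10.3%) with 0 lower (1 and 1). MHC class I presentation rose in 3 of 22 (13.6%) with 0 lower (2 and 5), at a median of -0.1. MHC class II presentation rose in 1 of 12 (8.33%) with 0 lower (1 and 3), at a median of -0.13. The shares of pattern recognition and of both MHC lists were below the 15.0% of all 9348 genes. H2-Q6, of the class I family whose close copies may share reads, reached 1051, 1001 and 1144 CPM against 437, 520 and 363 CPM. Immediate early genes rose in 2 of 18 (11.1%, also below 15.0%) and fell in 0 (1 and 2), at a median of -0.11. Klf6 rose by 1.13 and Btg2 by 0.66.

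Among the cell type markers themselves, CD4 T cell genes fell. Of 19 markers, 0 rose and 8 fell (0 and 10), with a median of -0.80, and many of them belong to the T cell receptor list set aside here. Cd6, a T cell surface receptor, stood at 122, 102 and 125 CPM against 353, 405 and 275 CPM (log2 fold change -1.60, SE 0.21, edgeR adjusted p = 0.00549). Cd4 itself, named after its values were seen, stood at 82.5, 65.4 and 86.5 CPM against 89.0, 151 and 68.7 CPM, with overlap. CD8 T cell markers had 0 of 5 higher and 1 lower (0 and 2). Their median was 0.48, and 3 of the 5 stood above the 0.30 of all described genes. Cd8a, which fell, stood at 79.3, 71.4 and 81.6 CPM against 165, 166 and 130 CPM. Log2 fold changes were -0.39 for Cd8b1, 0.96 for Crtam and 0.73 for Eomes, none of which passed under the all-gene scaling. Regulatory T cell markers had 0 of 7 higher and 2 lower (0 and 3). The pair that fell was Gpr83, which entered through WT alone, and Izumo1r, of the folate receptor family and known from regulatory T cells. The 2 genes lie side by side on chromosome 9 (14860210 to 14870789 and 14885814 to 14903949). Izumo1r stood at 12.9, 13.8 and 12.9 CPM against 61.3, 67.4 and 61.0 CPM, tight within each genotype (log2 fold change -2.30, SE 0.28, edgeR adjusted p = 0.00418), whereas Foxp3, the factor that defines regulatory T cells, stood at 12.3, 17.6 and 14.8 CPM against 25.0, 25.7 and 10.9 CPM and overlapped. Igfbp4, which binds insulin-like growth factors and is known in naive T cells, stood at 84.1, 85.9 and 81.5 CPM against 265, 325 and 305 CPM (log2 fold change -1.88, SE 0.22, edgeR adjusted p = 0.00418).

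Natural killer cell markers rose in 4 of 17 and fell in 0 (3 and 0), among them the granzyme Gzma at 249, 286 and 284 CPM against 108, 99.4 and 60.7 CPM. The markers of highest level did not pass the test. Nkg7, a granule protein, stood at 423, 440 and 524 CPM against 518, 518 and 594 CPM, Tyrobp, the adaptor DAP12, at 388, 412 and 507 CPM against 485, 504 and 745 CPM, and Fcer1g, the Fc receptor gamma chain, at 192, 173 and 249 CPM against 192, 178 and 333 CPM. Marginal zone B cell markers rose in 3 of 10 with 0 lower (1 and 1), monocyte and neutrophil markers in 2 of 19 with 0 lower (0 and 1), dendritic cell markers in 1 of 14 with 0 lower (0 and 2) and plasma cell markers in 1 of 14 with 0 lower (1 and 2). The last 3 shares, 10.5%, 7.14% and 7.14%, were below the 15.0% of all 9348 genes. Over all tested genes 8.52% were higher. Germinal centre B cell markers had 1 of 8 higher and 1 lower (0 and 2). Erythroid and platelet markers had 0 of 15 called in either direction, and stromal and endothelial markers 0 of 13 (0 and 1). The set-aside lists held 6 of 41 higher and 10 lower for T cell receptor signaling, 14 of 100 and 2 for cytokines and their receptors, and 10 of 57 and 1 for cell death.

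The letters CTTTGA or CTTTGT, which occur in sites bound by TCF/LEF proteins, were sought in the same promoter windows on both strands. They stood in 36.9% of 314 lower genes, in 28.1% of 1111 higher genes, in 27.8% of the 7485 described genes with an entry and in 34.5% of all genes with one. Olfactory or vomeronasal receptors made up 129 of the 410 lower genes, and their part in the 36.9% was not tested. Of the CD4 T cell markers that fell, 4 of 7 with an entry held the letters, beside 6 of 13 in the whole list. Genes that rose held them too, with 7 of 16 interferon-stimulated genes and 4 of 10 chaperones. In these whole lists the letters stood in 14 of 36 and 5 of 29 genes with an entry. Igfbp4, Izumo1r and Gpr83 did not hold them in this window, which says nothing of sites elsewhere.

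All 12 of the largest rises had entered through the TCF-1 cKO mean alone, being under 10 CPM in WT, so the entry limit had a part in which genes these are, and their values are a description. Adm, encoding the vasodilator adrenomedullin and known to be induced by hypoxia, stood at 34.1, 232 and 30.2 CPM against 4.46, 5.70 and 7.85 CPM, with a log2 fold change of 3.99 that became 2.40 without TCF-1 cKO replicate 2 (edgeR adjusted p = 0.0118 and 0.0268). Tmc3, of the transmembrane channel-like family, likewise stood highest in that library, at 50.8 CPM beside 10.4 and 13.2 CPM, and its adjusted p by edgeR became 0.111 without it. Zfp748, a zinc finger protein, was more even, at 52.0, 38.1 and 27.5 CPM against 4.16, 4.23 and 2.67 CPM (log2 fold change 3.38). Wrn, the helicase lost in Werner syndrome, stood at 24.2, 12.2 and 18.4 CPM against 2.70, 3.26 and 1.23 CPM. Crem, a cyclic AMP-responsive factor, Parg, which removes poly(ADP-ribose), and Snx13, a sorting nexin, rose by 2.84, 2.77 and 2.78, and Zfp407 and Ppfia4 by 2.87 and 3.24.

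Several of the 10 genes with the smallest p-values were more abundant. Mrc1 and Zfp748 were also among the largest rises and entered through the TCF-1 cKO mean alone. Mbnl1, a regulator of alternative splicing, stood at 674, 464 and 420 CPM in TCF-1 cKO and at 127, 147 and 111 CPM in WT (log2 fold change 1.98, SE 0.24, edgeR adjusted p = 0.00418). Cep85, a centrosomal protein, reached 354, 306 and 302 CPM against 91.8, 54.3 and 34.6 CPM (log2 fold change 2.42). Lars2 had the opposite direction, with a log2 fold change of -1.47 (SE 0.18, edgeR adjusted p = 0.00418), at the levels and with the limit given above. All 10 genes of this group, which also held Chd9, Igfbp4, Cd55, Mrc1, Slc40a1, Izumo1r and Zfp748, were separate between genotypes. As they were chosen by p-value in the same libraries, this separation adds no support. Over all 9348 genes, 34.8% were higher and 13.2% lower without overlap.

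**Figure D5:**
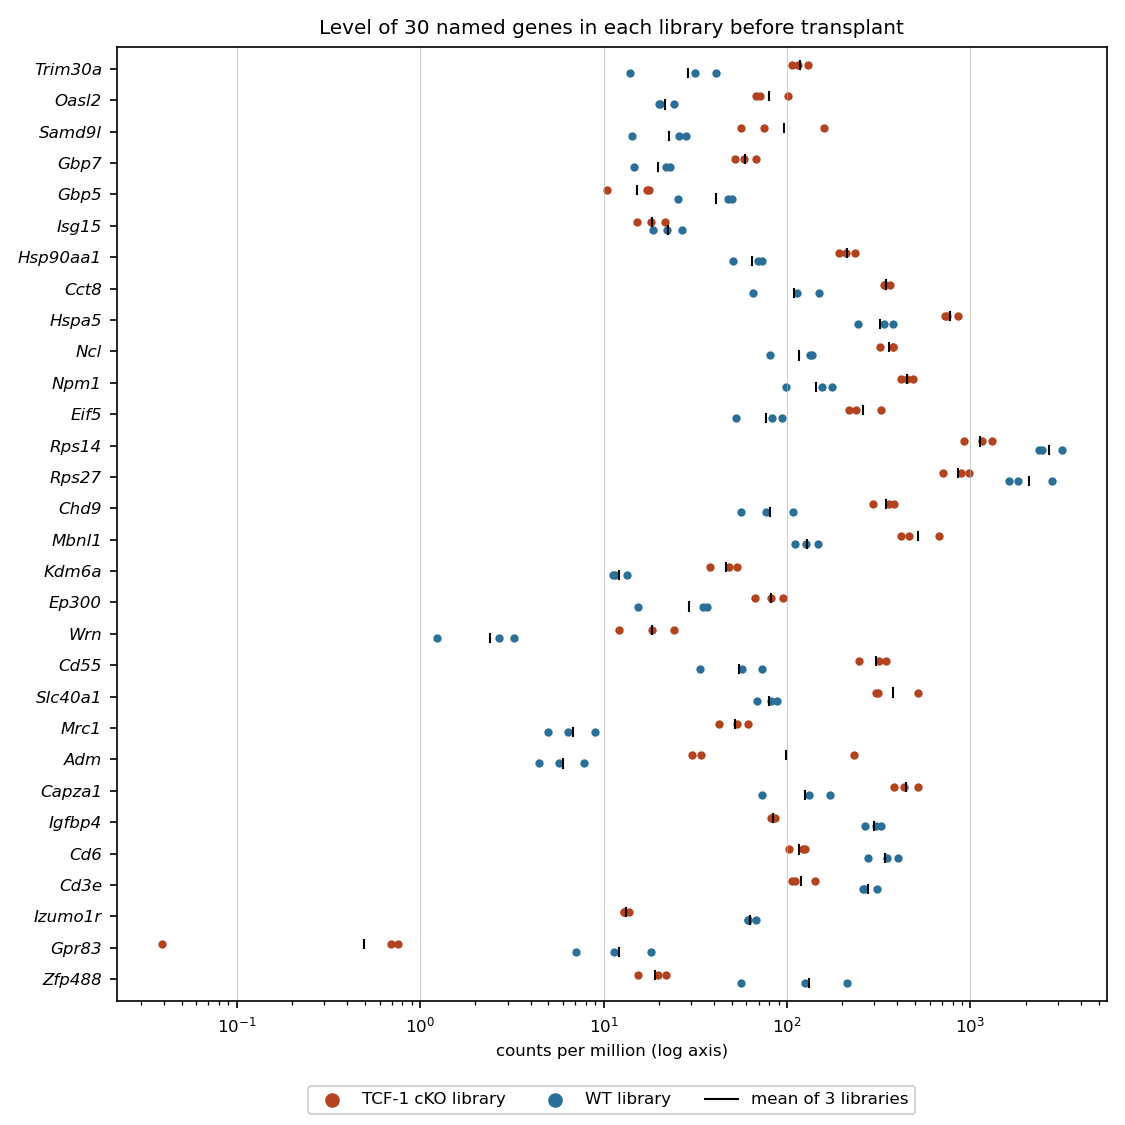
CPM (log axis) of 30 named genes in each TCF-1 cKO library (orange) and WT library (blue), with black ticks at the mean of 3 libraries. Trim30a lies at 107 to 130 CPM in TCF-1 cKO and 13.9 to 40.8 CPM in WT, Isg15 overlaps between the genotypes, and Adm owes its spread to 1 TCF-1 cKO library.

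Of the 12 largest falls, 10 had entered through the WT mean alone, which has the same bearing on them, and 7 were olfactory or vomeronasal receptors, and such receptors made up 129 of the 410 lower genes (31.5%), 0 of the 1405 higher genes and 168 of the 9348 (1.80%). Of these 168, 122 entered through WT alone with 92 lower calls, and 46 were over the limit in both genotypes with 37 lower and 0 higher calls. Olfr1247, an olfactory receptor, stood at 11.6, 10.2 and 9.51 CPM in TCF-1 cKO and at 124, 34.5 and 89.5 CPM in WT (log2 fold change -3.00, SE 0.42, edgeR adjusted p = 0.0057). Zfp488, a zinc finger repressor known from oligodendrocytes, stood at 22, 19.7 and 15.5 CPM against 212, 56.4 and 126 CPM, and Ces2f, a carboxylesterase, at 3.68, 3.82 and 2.22 CPM against 38, 11.2 and 28.4 CPM. WT replicate 1 was the highest and WT replicate 2 the lowest of the WT libraries for these 3 genes, as for the olfactory receptor and pseudogene sums. Ltbp2, a matrix protein that fell by 4.51, differed in that WT replicate 3 was highest, at 25.8 CPM beside 9.32 and 1.22 CPM. The part of these library differences in the falls was not tested.

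Calls were spread over the chromosomes, with higher genes making up 7.38% of members on chromosome 17 and 22.6% on the X chromosome, and lower genes 0.837% on the X chromosome and 9.54% on chromosome 7. Over all 9348 genes 15.0% were higher and 4.39% lower, and on chromosome 11 the shares were 13.5% and 2.75%. Within 5 Mb of Tcf7, 14 of 56 genes were higher (25.0%) and 5 lower (8.93%). Among them Skp1a, of SCF ubiquitin ligases, stood at 175, 193 and 179 CPM against 61.2, 83.8 and 50.2 CPM (log2 fold change 1.45), and the interferon-inducible GTPase genes Irgm1 and Tgtp2 rose by 1.01 and 1.37. Rack1, a ribosome-bound scaffold, fell from 1618, 1528 and 1901 CPM in WT to 899, 1047 and 1144 CPM, and Olfr1385 fell by 2.65. Strain differences near a targeted gene and effects of its loss cannot be told apart in this design.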

How the data were processed

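RNA-seq libraries from FACS-sorted splenic T cells (SMARTseq HT cDNA, Nextera XT, paired ends) were pseudoaligned by the authors with kallisto 0.46.2 per the labels, which name mm9 as build; no source used here names the transcript set. The deposited estimated counts and TPM are per transcript and were not filtered. Of 117497 transcripts, 116428 were matched to GENCODE M21 on GRCm38, and estimated counts were summed per gene and rounded. With R 4.3.3, edgeR 4.0.16 (TMM, filterByExpr, quasi-likelihood test, Benjamini-Hochberg adjustment over 17021 genes) was fitted to the 6 libraries with genotype alone, and the SE is the log2 fold change divided by the square root of F. DESeq2 1.42.0, limma 3.58.1 on voom weights and on the authors' deposited TPM as log2(TPM + 1), other scalings, a fit over 12 libraries, a replicate block and leaving out each library were alternatives. Scaling within 20 length bins was added after seeing the data.

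Genes and lists were chosen with earlier results of these data known. Named were Tcf7, the 12 largest rises and falls without overlap and the 10 smallest p-values (passing over receptor segments, set-aside lists and unnamed loci, 50 of 1766 candidates), up to 4 members per function list by p-value and per marker list by level, and called genes near Tcf7; others are marked as chosen after their values were seen, and a few genes are not reported here. Same-numbered replicates did not deviate together (r = 0.0777, -0.0773 and 0.14), so replicate numbers were not treated as pairs. Tests measure the spread between 3 libraries per genotype. Tables and figures used Python 3.11.15, pandas 2.3.3 and matplotlib 3.10.9. Sequences are those of RefSeq on GRCm38.p6.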

Additional observations from a re-analysis of the deposited data

How the results depend on the processing

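Over 17021 genes, 2127 changed, and 410 lower and 1405 higher calls were made among the 9348 genes. Leaving out 1 library at a time gave 14 to 2532 changed genes, 5 to 1241 higher and 3 to 370 lower calls, the lowest without WT replicate 1. Upper-quartile scaling gave 605 higher and 1128 lower, TMM factors from the 9348 genes 729 and 974, and length bins 677 and 869. DESeq2 gave 3454 changed, 2230 higher and 621 lower. With no filter on low counts 3245 genes changed and with 12 libraries in 1 fit 3237, while limma on log2(TPM + 1) gave 122 lower calls. The replicate block gave 1752 changed, 1413 higher and 354 lower, within 1.5 times of the values without it. No called gene named in the text changed direction under any alternative. Leaving out 1 library gave log2 fold changes of -0.25 to 0.11 for Tcf7, which turned positive without a filter (0.02), on log2(TPM + 1) (0.22) and without TCF-1 cKO replicate 2 (0.11) or 3 (0.00) or WT replicate 1 (0.07) or 2 (0.06), and did not pass in any of them. The cause of these shifts was not tested. Total counts were 17103415 to 25756488, and with 3 libraries per genotype an exact permutation test of a single value cannot go below p = 0.1.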
